A study of Mus musculus with 4 samples.

Results

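The 6 functional TRBJ2 segments of the mouse T-cell receptor β (TRB) locus, TRBJ2-1, TRBJ2-2, TRBJ2-3, TRBJ2-4, TRBJ2-5 and TRBJ2-7, were followed through 4 repertoires of liver CD8+ T cells. A rearrangement was counted for a segment when its best J hit was that segment. TRBJ2 segments ended 179970 of the 261962 listed rearrangements, and the 6 TRBJ1 segments ended the other 81992. Of the TRBJ2 rearrangements, 31844 and 47964 were in-frame in Vsig4-deficient hosts, against 32986 and 50705 in wild-type hosts. Out of frame were 3460 and 3372 in Vsig4-deficient hosts, against 3432 and 5383 in wild-type hosts. Those with a stop codon in frame numbered 164 and 179 in Vsig4-deficient hosts, against 188 and 293 in wild-type hosts, and were set aside.

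CD8+ T cells were sorted as live CD45+CD3+ cells from livers of mice given MC38 tumour cells 14 days before, and TRB transcripts were sequenced from total RNA. Vsig4-deficient hosts (Vsig4-/-, labelled VSIG4 ko) were compared with wild-type hosts (WT), and all 4 libraries came from tumour-bearing livers. Vsig4 encodes a complement receptor of tissue macrophages. The sorted T cells came from the deficient mice themselves, and whether the deletion acts within them was not tested. Nothing in the labels ties the 2 libraries of a genotype to separate animals, so p-values cover no more than the spread between the samples, which may be technical. The sources used here give neither the age nor the sex of the mice. The libraries held 901567 to 1269480 counts, which may be reads or molecules, since no source used here says which. Between 14.8% and 20.3% of the TRBJ2 rearrangements of a library were listed in at least 1 other library with the same V, J and CDR3 nucleotides. Of all TRBJ2 rearrangements of a library, 0.165% to 0.514% had at least 100 times their share of counts in another library. Smaller ratios were not counted, such as that of the largest TRBJ2-5 clonotype of Vsig4-deficient 1 (52404 counts there, 1110 in Vsig4-deficient 2). The sorting marker CD8 could not be checked, since the tables hold TRB rearrangements alone.

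A TRB chain is assembled in the thymus, first by joining a D segment to a J segment and then by joining a V segment to the DJ unit. The mouse locus holds a pair of D–J clusters: TRBD1 lies before the TRBJ1 segments, and TRBD2 lies between TRBJ1 and TRBJ2. TRBJ2 segments can therefore join either D segment. Nucleases trim the ends, a hairpin opened off centre leaves palindromic (P) bases, and terminal transferase adds N bases, so the junction decides the length and sequence of CDR3, the loop that contacts peptide. A rearrangement out of frame encodes no receptor. Its features are commonly taken as those of recombination before selection on the protein.

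The germline bases that each segment can give to CDR3 are shown because the segments differ in length and in their first bases, where trimming occurs. They run 5′ to 3′ from the start of the segment to the conserved phenylalanine codon that ends CDR3. Lower case marks the bases lost at the median trimming of out-of-frame rearrangements, and capitals mark what is usually kept.

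TRBJ2-1: taaCTATGCTGAGCAGTTCTTC

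TRBJ2-2: caAACACCGGGCAGCTCTACTTT

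TRBJ2-3: aGTGCAGAAACGCTGTATTTT

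TRBJ2-4: agTCAAAACACCTTGTACTTT

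TRBJ2-5: aacCAAGACACCCAGTACTTT

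TRBJ2-7: ctccTATGAACAGTACTTC

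Each sequence was read from the untrimmed rearrangements of the deposited tables, of which 96.7% (TRBJ2-7) to 98.9% (TRBJ2-4) carried exactly these bases. TRBJ2-2 offers the most CDR3 bases (23), followed by TRBJ2-1 (22). TRBJ2-3, TRBJ2-4 and TRBJ2-5 offer 21 each, and TRBJ2-7 offers the fewest (19). The last 28 bases of each RefSeq segment, which encode framework 4, lie outside CDR3 and were not part of the tables. All 6 segments lie within about a kilobase of chromosome 6 (GRCm38.p6, RefSeq), as J segments rather than exons of a conventional gene. TRBJ2-1 starts at 41542754, TRBJ2-2 at 41542957, TRBJ2-3 at 41543223, TRBJ2-4 at 41543362, TRBJ2-5 at 41543453 and TRBJ2-7 at 41543810, where it ends at 41543856. TRBD2 (41542163 to 41542176) lies 577 bases before TRBJ2-1 and 1633 bases before TRBJ2-7. TRBJ2-6, annotated as a pseudogene between TRBJ2-5 and TRBJ2-7, was listed in 0 rearrangements.

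The first question was how often each segment was used and whether use followed position. Together the segments ended 67.7% and 68.4% of in-frame clonotypes in Vsig4-deficient hosts, against 69.4% and 68.7% in wild-type hosts. Clonotypes are here distinct in-frame junctions, defined by V, J and the CDR3 nucleotides together. TRBJ2-7, the last of the cluster, was the most used in every library, with 19.3% and 18.4% of in-frame clonotypes in Vsig4-deficient hosts, against 19.9% and 19.7% in wild-type hosts. TRBJ2-1, the first, came next with 13.7% and 15.2% in Vsig4-deficient hosts, against 14.3% and 13.9% in wild-type hosts. Use was thus high at both ends of the cluster and lower between them.

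TRBJ2-5 took 11.98% and 12.1% of in-frame clonotypes in Vsig4-deficient hosts, against 12.1% and 12.2% in wild-type hosts, the narrowest spread of the 6 segments. TRBJ2-4 had 8.59% and 8.87% in Vsig4-deficient hosts, against 8.69% and 8.65% in wild-type hosts. TRBJ2-3 had 8.37% and 7.82% in Vsig4-deficient hosts, against 8.62% and 8.66% in wild-type hosts. The ranges of these neighbours overlapped, so their order was not resolved. TRBJ2-2, the least used although second in the cluster, had 5.73% and 5.95% in Vsig4-deficient hosts, against 5.77% and 5.71% in wild-type hosts. The other steps of the order, TRBJ2-7 over TRBJ2-1 over TRBJ2-5 over TRBJ2-4, and TRBJ2-3 over TRBJ2-2, had no overlap between libraries.

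The next comparison set in-frame against out-of-frame rearrangements of the same libraries, that is, junctions that can encode a receptor against those that cannot. Both were read from RNA, and those out of frame had lower counts. In Vsig4-deficient 1 and 2 and wild-type 1 and 2, median counts of TRBJ2 rearrangements were 5, 3, 7 and 6 in-frame, against 3, 2, 3 and 3 out of frame. TRBJ2-4 was the only one of the 6 segments to pass the test. It took 8.59%, 8.87%, 8.69% and 8.65% of in-frame rearrangements in Vsig4-deficient 1 and 2 and wild-type 1 and 2, against 8.97%, 9.77%, 10.6% and 9.91% of out-of-frame rearrangements in the same order. The in-frame share was lower in each library, and the highest in-frame value lay below the lowest out-of-frame value. By edgeR's quasi-likelihood test with the library as a block and Benjamini-Hochberg adjustment over all 12 TRBJ segments, TRBJ2-4 fell by 0.17 on the log2 scale in-frame (SE 0.036, adjusted p = 9.6e-05). Over the 12 TRBJ segments 33.3% were called, the others being TRBJ1 segments, so the 1 of 6 TRBJ2 segments lay below that background.

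The remaining TRBJ2 segments kept within 0.06 of 0 on the log2 scale. TRBJ2-7 averaged 19.3% ± 0.64 in-frame and 19.0% ± 0.83 out of frame (SD, n = 4 libraries each). TRBJ2-1 averaged 14.3% ± 0.67 in-frame and 14.3% ± 0.40 out of frame (SD, n = 4 each). The rank of TRBJ2-7, TRBJ2-1 and TRBJ2-5 above the rest was thus present in junctions that encode no receptor. The cluster as a whole was 1.35 percentage points lower in-frame than out of frame, with differences of -1.57, -0.11, -2.47 and -1.24 in Vsig4-deficient 1 and 2 and wild-type 1 and 2. The two-sided exact sign-flip permutation test gave p = 0.13, the smallest that 4 libraries allow. The difference was 0.58 percentage points without clonotypes of 1 count.

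**Figure D1:**
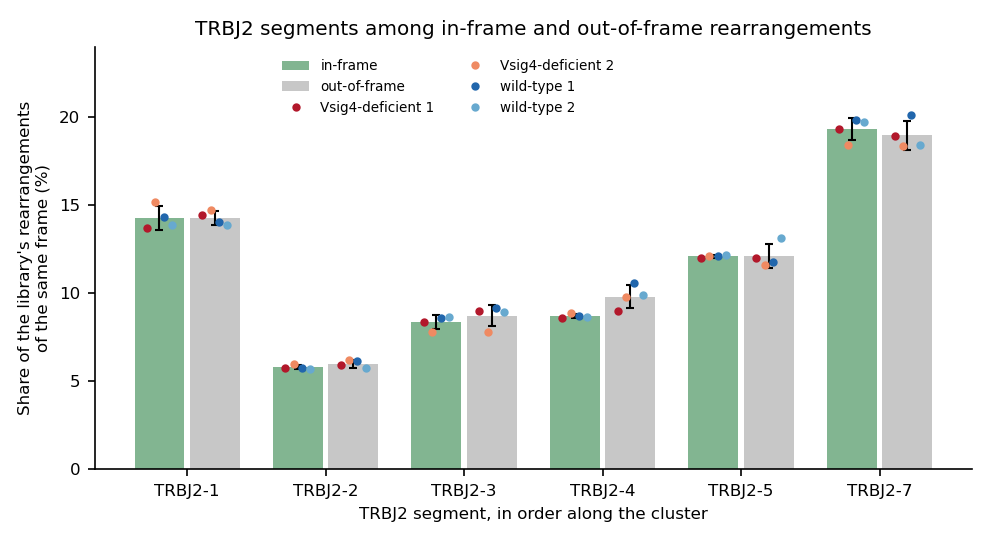
Share of each TRBJ2 segment (vertical axis, % of the library's rearrangements of the same frame) in order along the cluster. Bars are means and error bars SDs over the 4 libraries, in-frame left of out-of-frame, and points are libraries. TRBJ2-4 is the segment whose in-frame points all lie below its out-of-frame points.

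Trimming differed between the segments far more than between libraries. Among in-frame clonotypes TRBJ2-7 lost the most bases, with means of 3.83 and 3.82 in Vsig4-deficient hosts, against 3.78 and 3.84 in wild-type hosts. TRBJ2-3 lost the fewest, 1.45 and 1.44 in Vsig4-deficient hosts, against 1.46 and 1.40 in wild-type hosts. TRBJ2-1 averaged 3.43 ± 0.02 bases and TRBJ2-5 averaged 2.98 ± 0.04 bases (SD, n = 4 each). TRBJ2-2 and TRBJ2-4 both averaged 2.21 bases, with SDs of 0.05 and 0.06 (n = 4 each). After trimming, TRBJ2-2 contributed 20.8 bases and TRBJ2-7 contributed 15.2 bases to the average in-frame CDR3. N bases that match the germline by chance count as J bases in such alignments, so the losses are lower bounds.

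Untrimmed ends with P bases were frequent where few bases were lost. They made up 35.4% and 34.3% of in-frame TRBJ2-3 clonotypes in Vsig4-deficient hosts, against 34.3% and 35.9% in wild-type hosts. TRBJ2-4 followed with 24.2% ± 0.41 (SD, n = 4), and TRBJ2-1 had the lowest share, 5.23% ± 0.10 (SD, n = 4). Trimming was not smooth. TRBJ2-7 lost exactly 4 bases, the 4 in lower case above, in 22.0% and 20.9% of in-frame clonotypes in Vsig4-deficient hosts, against 21.8% and 21.6% in wild-type hosts. Its second peak lay at 7 bases, with 14.98% ± 0.23 (SD, n = 4), and the share at 8 bases was 0.253% ± 0.041 (SD, n = 4). TRBJ2-5 peaked at 2 bases (18.9% ± 0.48) and at 6 bases (13.6% ± 0.29), and TRBJ2-1 at 1 base (16.9% ± 0.30), 3 bases (18.9% ± 0.32) and 7 bases (11.9% ± 0.39; all SD, n = 4). Out-of-frame TRBJ2-7 rearrangements had the same peaks, with 21.2% ± 1.10 at 4 bases and 14.2% ± 0.49 at 7 bases (SD, n = 4).

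**Figure D2:**
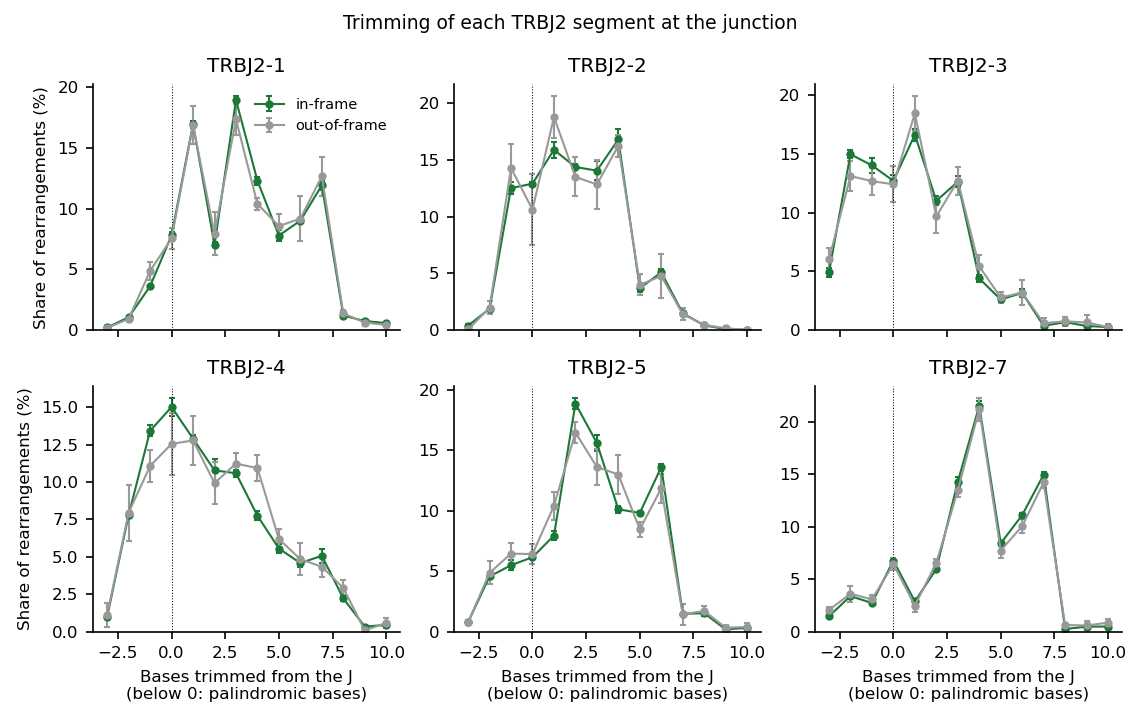
Bases trimmed from the 5′ end of each TRBJ2 segment (horizontal axis, values below 0 are palindromic bases) against the share of that segment's rearrangements (vertical axis, %). Points are means and bars SDs over the 4 libraries. TRBJ2-7 peaks at 4 and 7 bases in both frames, TRBJ2-2 is highest at 4 bases in-frame and at 1 base out of frame, and TRBJ2-4 at 4 bases is higher out of frame.

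Between frames, the clearest difference in trimming was again in TRBJ2-4. Loss of 4 bases was seen in 7.40%, 8.17%, 7.72% and 7.71% of its in-frame clonotypes in Vsig4-deficient 1 and 2 and wild-type 1 and 2, against 12.05%, 11.02%, 10.7% and 9.97% of its out-of-frame rearrangements. All 4 libraries were lower in-frame, without overlap. By the same edgeR test over 248 combinations of segment and trimming the log2 ratio was -0.66 (SE 0.10, adjusted p = 1.7e-07). It stayed past the threshold under 14 of 14 alternatives, at adjusted p from 1.7e-10 to 0.019. Such ratios are relative to all rearrangements of a library and frame, not to those of the segment. The value therefore includes the lower in-frame use of TRBJ2-4 itself (log2 ratio -0.17) and is not a separate measure of trimming. Among the 110 TRBJ2-4 rearrangements with a stop codon, which were set aside, 26 had lost 4 bases (23.6%), against 7.79% of in-frame clonotypes. With those rearrangements counted as in-frame, the log2 ratio was -0.64 (SE 0.10, edgeR adjusted p = 4.5e-07). They were only 110 of the 23073 TRBJ2-4 rearrangements listed, so adding them could hardly move the ratio. The part of stop codons in the difference was not tested. Mean trimming of TRBJ2-4 was 2.21 bases in-frame and 2.501 bases out of frame, lower in-frame in 4 of 4 libraries (exact sign-flip permutation test p = 0.13, the smallest possible).

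In all, 11 of 134 TRBJ2 combinations were called, 10 lower and 1 higher in-frame, against 10.5% called over all TRBJ segments, so the TRBJ2 count was near the background. The balance of directions depended on the scaling. With TMM factors, which moved the median log2 ratio of all 248 combinations to 0.08, against -0.07 with library totals, 22 were called, 18 higher and 4 lower in-frame. TRBJ2-5 was lower in-frame at 4 lost bases. Its shares there were 10.05%, 9.86%, 10.1% and 10.5% in-frame and 14.3%, 13.1%, 13.9% and 10.7% out of frame (log2 ratio -0.34, SE 0.082, edgeR adjusted p = 0.0017). With TMM factors and with DESeq2 this call was lost, and adjusted p ran from 1.8e-05 to 0.34 over the alternatives. TRBJ2-5 was also lower at 1 lost base (log2 ratio -0.42, SE 0.091, edgeR adjusted p = 0.00027), a call lost with DESeq2 (adjusted p from 0.0002 to 0.24 over the alternatives). Of the 179 TRBJ2-5 rearrangements with a stop codon, 20.7% had lost 4 bases and 7.26% 1 base, against 10.1% and 7.99% of in-frame clonotypes. TRBJ2-7 was lower in-frame at losses of 8, 10, 11 and 12 bases, with log2 ratios of -1.22, -0.80, -1.18 and -0.94, each of which held few rearrangements. The calls at 8 and 11 bases held under 11 and 13 of 14 alternatives (adjusted p up to 0.090 and 0.081), and both were lost with DESeq2. Those at 10 and 12 bases held under 5 and 6 of 14 (adjusted p up to 0.47 and 0.31), and both were lost with TMM factors, with DESeq2 and without wild-type 1 or wild-type 2. Of the 237 TRBJ2-7 rearrangements with a stop codon, 4.22%, 0.0%, 2.53% and 0.42% had lost 8, 10, 11 and 12 bases. Pooled in-frame clonotypes had 0.26%, 0.50%, 0.33% and 0.35% there. The part of stop codons in these calls was not tested. The 1 combination that was higher in-frame was TRBJ2-1 at 4 lost bases, at 12.3% ± 0.35 in-frame and 10.4% ± 0.47 out of frame (SD, n = 4 each; log2 ratio 0.24, SE 0.078, edgeR adjusted p = 0.033). This call held under 9 of 14 alternatives and was lost with DESeq2, without the library block and without Vsig4-deficient 2, wild-type 1 or wild-type 2 (adjusted p up to 0.36).

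CDR3 length had the same order over the segments as the mean number of J bases kept. In-frame CDR3s with TRBJ2-7 were the shortest, at 39.6 ± 0.05 nucleotides, and those with TRBJ2-2 the longest, at 44.2 ± 0.10 (mean ± SD, n = 4 libraries). TRBJ2-3 averaged 44.0 ± 0.03, TRBJ2-4 42.7 ± 0.05, TRBJ2-1 42.6 ± 0.04 and TRBJ2-5 42.2 ± 0.03 nucleotides (SD, n = 4 each). TRBJ2-7 CDR3s of 12 residues made up 20.2% and 19.6% of its in-frame clonotypes in Vsig4-deficient hosts, against 19.9% and 19.9% in wild-type hosts. With TRBJ2-2 the same length held 4.27% and 5.06% in Vsig4-deficient hosts, against 4.99% and 5.46% in wild-type hosts. The commonest length was 14 residues with TRBJ2-1, TRBJ2-4, TRBJ2-5 and TRBJ2-7, and 15 residues with TRBJ2-2 and TRBJ2-3. The stretch between the V and J ends, made of D and N bases, differed little, at 9.50 bases with TRBJ2-2 to 10.2 bases with TRBJ2-7.

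Lengths were less spread among junctions that encode a receptor. The SD of CDR3 length over the cluster was 4.54 nucleotides in-frame and 5.19 nucleotides out of frame, narrower in-frame in 4 of 4 libraries (exact sign-flip permutation test p = 0.13, the smallest possible). TRBJ2-5 showed the widest gap, 4.08 against 4.92 nucleotides. The mean itself differed by 0.22 nucleotides, at 41.99 in-frame and 42.2 out of frame. Out-of-frame lengths cannot be multiples of 3, which by itself sets the 2 classes on different values.

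**Figure D3:**
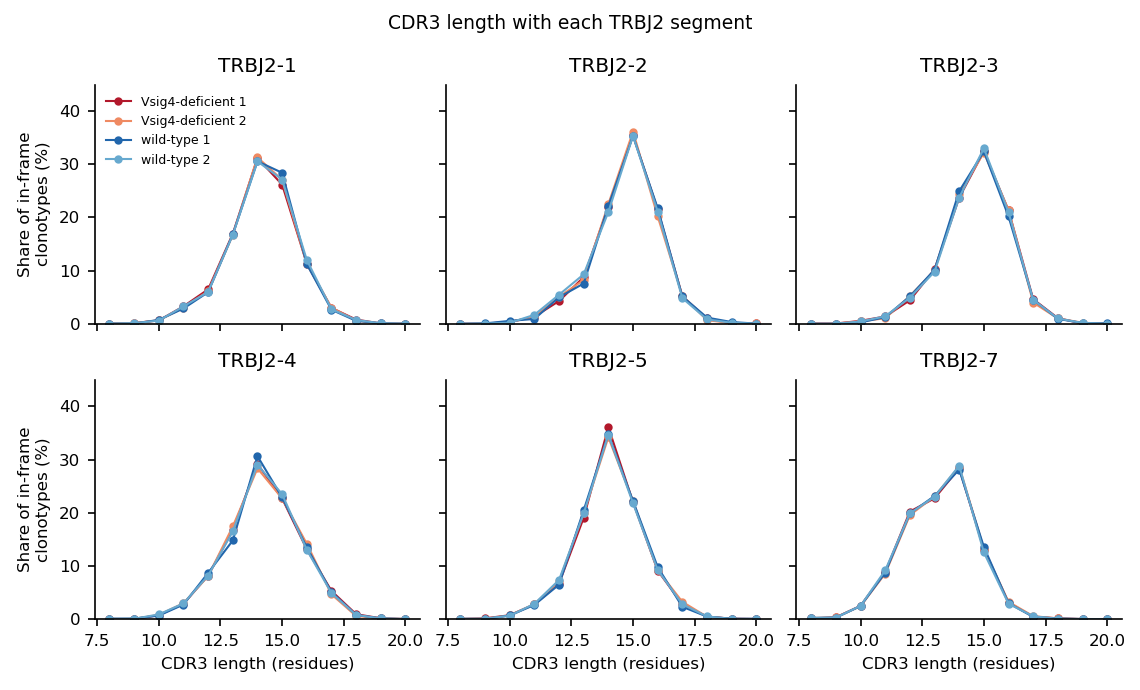
CDR3 length in residues (horizontal axis) against the share of a segment's in-frame clonotypes (vertical axis, %), with 1 line per library. The 4 libraries overlie each other, and TRBJ2-7 is shifted to shorter loops.

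The D segment listed beside each TRBJ2 segment was read next. A single D was listed for most in-frame clonotypes, and TRBD2 was that D in 61.6% and 61.4% of TRBJ2 clonotypes in Vsig4-deficient hosts, against 63.5% and 63.4% in wild-type hosts. Among TRBJ1 clonotypes, which cannot use TRBD2 by deletion since it lies after them, TRBD2 was listed in 6.23% and 6.92% in Vsig4-deficient hosts, against 6.81% and 7.26% in wild-type hosts. Those values give the level at which the listed D goes against the order of the locus, D bases being few and alike. TRBJ2-2 had the lowest TRBD2 share, 49.0% and 50.1% in Vsig4-deficient hosts, against 53.0% and 51.3% in wild-type hosts. TRBJ2-4 had the highest, 66.6% ± 1.02 (SD, n = 4). Out of frame, TRBJ2-2 was again the lowest, with a mean of 46.3%, while the others lay between 61.4% and 63.8%.

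V pairing was described as the log2 ratio of observed clonotypes to those expected if V and J were chosen independently within the library. It was computed for the 86 TRBV–TRBJ2 pairs with at least 100 in-frame clonotypes in every library. Ratios were small, and 55 of the 86 pairs had the same sign in all 4 libraries. The strongest excess was TRBV17 with TRBJ2-2, at 0.60 and 0.58 in Vsig4-deficient hosts, against 0.73 and 0.75 in wild-type hosts. This pair rested on 147 to 251 clonotypes per library. Out of frame, on 48 rearrangements in all, its ratio was -0.23.

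TRBJ2-5 took 4 of the 6 named extremes. It was in excess with TRBV17 (0.36 ± 0.08) and TRBV16 (0.36 ± 0.11), and in deficit with TRBV31 (-0.40 ± 0.12) and TRBV19 (-0.32 ± 0.12; mean log2 ratio ± SD, n = 4). The sixth was TRBV19 with TRBJ2-7, at -0.25 and -0.57 in Vsig4-deficient hosts, against -0.21 and -0.13 in wild-type hosts. TRBV31 differs from other TRBV segments in lying at the far side of the TRBJ2 cluster, so it joins by inversion. Across the 17 TRBV segments with at least 10 clonotypes with each TRBJ, the profile of TRBJ2-5 was most like that of TRBJ2-4 (Pearson r = 0.58) and then TRBJ2-7 (r = 0.55). TRBJ2-4 and TRBJ2-7 are the nearest functional segments on either side of it, with the pseudogene TRBJ2-6 before TRBJ2-7. TRBJ2-3 was most like TRBJ2-4 (r = 0.51), TRBJ2-2 most like TRBJ2-5 (r = 0.39) and TRBJ2-1 most like TRBJ2-2 (r = 0.25). These correlations describe ratios that share libraries and totals, and the mean with TRBJ1 segments ran from -0.55 for TRBJ2-5 to -0.20 for TRBJ2-3.

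**Figure D4:**
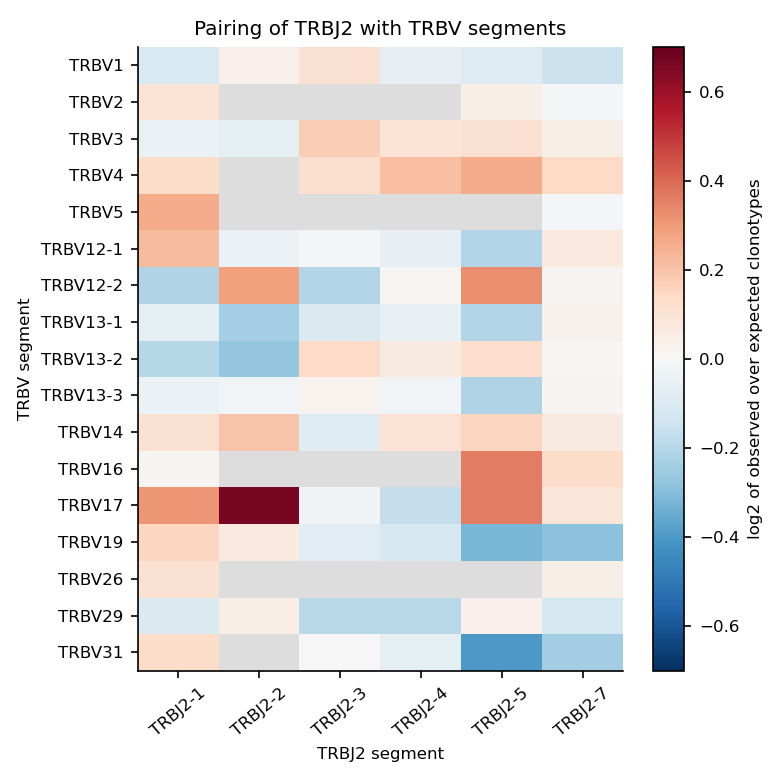
Mean log2 ratio of observed to expected in-frame clonotypes (colour) for TRBV segments (rows) and TRBJ2 segments (columns) over the 4 libraries, with grey where a library had under 100 clonotypes. TRBV17 with TRBJ2-2 is the strongest excess at 0.66 and TRBV31 with TRBJ2-5 the strongest deficit at -0.40.

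Between frames, 74 of 138 TRBV–TRBJ2 pairs were called by the edgeR test, 35 higher and 39 lower in-frame, against 53.5% called over all 269 pairs, so the TRBJ2 count equalled the background. The calls followed the V segment. All 6 TRBJ2 pairs of TRBV31, TRBV22, TRBV21, TRBV2 and TRBV4 were lower in-frame, with TRBV31 at log2 ratios from -2.24 to -1.93. All 6 pairs of TRBV12-1, TRBV12-2 and TRBV14 were higher, with TRBV12-2 from 0.63 to 1.41.

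Natural killer T cells can enter a CD3+ gate, so V segments that they use often, TRBV13-2, TRBV29 and TRBV1, were summed within each J. They made up 24.8% and 27.7% of TRBJ2 clonotypes in Vsig4-deficient hosts, against 25.6% and 25.4% in wild-type hosts, and 27.9% and 29.4% of TRBJ1 clonotypes in Vsig4-deficient hosts, against 27.9% and 28.7% in wild-type hosts. Conventional CD8+ T cells use the same V segments, and the part of such cells in the results was not tested.

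The main comparison of the design was between Vsig4-deficient and wild-type hosts. Counted by clonotypes, the segments differed by at most 0.10 on the log2 scale, and 0 of 6 TRBJ2 segments were called by edgeR, against 0.0% over all 12 TRBJ segments (1 of 6 at an unadjusted p under 0.05, and 0 called with DESeq2). TRBJ2-3 and TRBJ2-7 were the 2 segments whose libraries did not overlap between genotypes, both lower in Vsig4-deficient mice, while 50.0% of all TRBJ segments had no overlap. TRBJ2-3 had a log2 ratio of -0.10 (SE 0.037, edgeR adjusted p = 0.097) and TRBJ2-7 one of -0.07 (SE 0.054, edgeR adjusted p = 0.53). Without Vsig4-deficient 1, TRBJ2-1, TRBJ2-3 and TRBJ2-7 passed the threshold, 3 of 6 where 50.0% of the 12 TRBJ segments did. The spread in such a fit comes from the 2 libraries of the other genotype alone, and the lone library is assumed to vary like them. The cluster share averaged 68.1% ± 0.47 in Vsig4-deficient hosts, against 69.0% ± 0.44 in wild-type hosts (SD over 2 libraries each). That difference of -0.98 percentage points had a two-sided exact permutation p = 0.33, the smallest that 2 against 2 libraries allow.

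With all 4 libraries, no TRBJ2 combination with trimming, CDR3 length or V segment passed the test between genotypes. The D segment listed was not tested between genotypes. None of the 128 combinations of TRBJ2 segment and trimming was called, against 0.0% over all TRBJ segments (3 of the 128 at an unadjusted p under 0.05, edgeR; 0 called with DESeq2). None of 67 combinations of TRBJ2 segment and CDR3 length was called, against 1.63% over all TRBJ segments (3 at an unadjusted p under 0.05, edgeR; 0 called with DESeq2). Among TRBV–TRBJ2 pairs, 0 of 133 were called, against 0.0% of all 259 pairs (5 at an unadjusted p under 0.05, edgeR; 0 called with DESeq2), but 57 of 131 were called without Vsig4-deficient 1, against 33.5% of all 254 pairs in that fit. The pair with the smallest p was TRBV4 with TRBJ2-3 (log2 ratio -0.49, SE 0.16, edgeR adjusted p = 0.67).

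Weighted by counts instead of clonotypes, TRBJ2 segments diverged between libraries. They held 76.4% and 76.9% of in-frame counts in Vsig4-deficient hosts, against 74.1% and 72.3% in wild-type hosts. TRBJ2-5 held 13.5% and 29.7% of in-frame counts in Vsig4-deficient hosts, against 12.6% and 12.6% in wild-type hosts, so Vsig4-deficient 2 stood apart. TRBJ2-4 held 15.5% and 7.93% in Vsig4-deficient hosts, against 9.42% and 10.6% in wild-type hosts, so here Vsig4-deficient 1 stood apart. More cells of a clone and more TRB RNA per cell cannot be told apart in these counts.

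TRBJ2-3 held 6.15% and 5.68% of in-frame counts in Vsig4-deficient hosts, against 7.94% and 8.53% in wild-type hosts, with no overlap. By edgeR the log2 ratio was -0.48 (SE 0.14, adjusted p = 0.027), and it ran from -0.54 to -0.13 over 14 alternatives, of which 4 kept the call (adjusted p from 0.0061 to 0.47). TRBJ2-2 held 7.34% and 7.32% in Vsig4-deficient hosts, against 5.08% and 6.43% in wild-type hosts, a log2 ratio of 0.35 (SE 0.13, edgeR adjusted p = 0.044). It ran from 0.19 to 0.56, and again 4 of 14 alternatives kept the call (adjusted p from 0.028 to 0.39). These were the 2 TRBJ2 segments called, against 25.0% of all 12 TRBJ segments. Both calls were lost when each library's largest clonotype was left out (adjusted p = 0.28 for TRBJ2-3 and 0.27 for TRBJ2-2), with the replicate block (adjusted p = 0.39 for each) and when any single library was left out. Without Vsig4-deficient 1, TRBJ2-5 had a log2 ratio of 1.24 in a fit that sets 1 Vsig4-deficient library against 2, so it describes Vsig4-deficient 2, where a single clonotype held 55.9% of the segment's counts. By counts, the libraries did not overlap between genotypes for 4 of the 6 TRBJ2 segments, against 66.7% of all TRBJ segments.

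**Figure D5:**
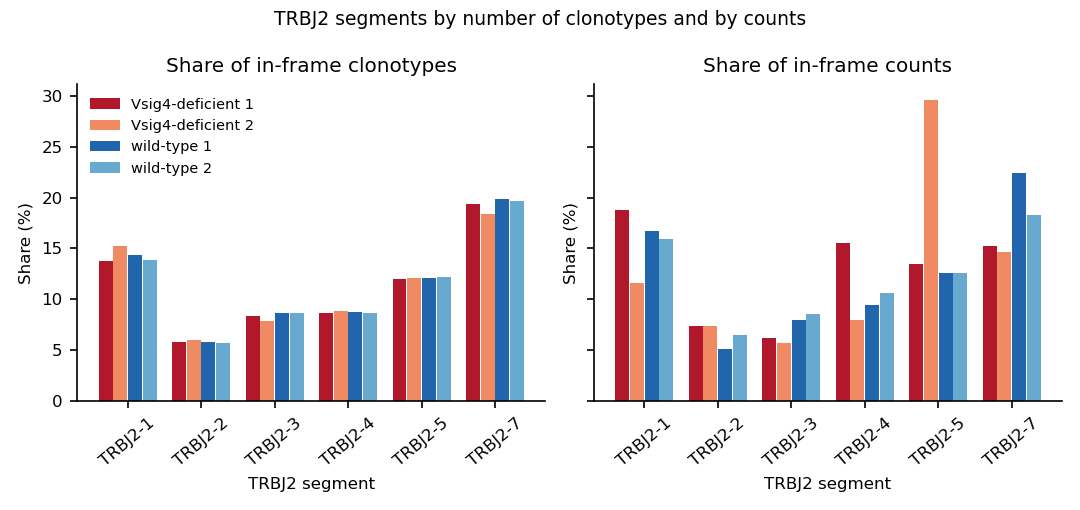
Share of in-frame clonotypes (left) and of in-frame counts (right) of each TRBJ2 segment, in %, with 1 bar per library. By clonotypes the 4 libraries are level, whereas by counts TRBJ2-5 reaches 29.7% in Vsig4-deficient 2 and TRBJ2-4 reaches 15.5% in Vsig4-deficient 1.

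Large clonotypes were counted next, since a single one weighs as 1 among clonotypes and by its counts otherwise. TRBJ2 clonotypes above 0.1% of in-frame counts numbered 52 and 42 in Vsig4-deficient hosts, against 23 and 14 in wild-type hosts. The genotypes did not separate at the lower limit of 0.01%, which 357 and 516 TRBJ2 clonotypes passed in Vsig4-deficient hosts, against 841 and 283 in wild-type hosts. Those above 0.1% held 34.2% and 32.9% of in-frame counts in Vsig4-deficient hosts, against 9.24% and 3.48% in wild-type hosts. The same class of TRBJ1 clonotypes numbered 19 and 18 in Vsig4-deficient hosts, against 7 and 7 in wild-type hosts, and held 7.35% and 6.01% of counts in Vsig4-deficient hosts, against 2.51% and 3.11% in wild-type hosts. Of the 10 largest clonotypes, TRBJ2 segments ended 8 and 7 in Vsig4-deficient hosts, against 7 and 8 in wild-type hosts. This was near their share of all rearrangements, 67.9% to 69.6% over the libraries. With the 10 largest left out, TRBJ2 held 71.1% and 71.0% of counts in Vsig4-deficient hosts, against 73.8% and 73.4% in wild-type hosts, which turns the direction of the difference from 3.41 to -2.56 percentage points (two-sided exact permutation p = 0.33 for the full data).

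By segment, large clonotypes were spread unevenly. Those with TRBJ2-5 above 0.1% held 6.42% and 21.9% of in-frame counts in Vsig4-deficient hosts, against 1.72% and 0.81% in wild-type hosts. Those with TRBJ2-4 held 10.3% and 2.19% in Vsig4-deficient hosts, against 0.91% and 1.49% in wild-type hosts, although they numbered 7 and 2 in Vsig4-deficient hosts, against 5 and 6 in wild-type hosts. Those with TRBJ2-7 overlapped between genotypes, with 3.24% and 2.82% in Vsig4-deficient hosts, against 4.25% and 0.00% in wild-type hosts. TRBJ2-3, with only 7.82% to 8.66% of in-frame clonotypes, had none among the 10 largest clonotypes of any library. Its large clonotypes held 1.08% and 1.11% in Vsig4-deficient hosts, against 0.31% and 0.00% in wild-type hosts. The largest TRBJ2-5 clonotype alone made up 40.5% and 55.9% of that segment's counts in Vsig4-deficient hosts, against 12.9% and 2.98% in wild-type hosts. In Vsig4-deficient 2 it held 203614 counts, 16.6% of all in-frame counts.

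The junctions of 7 of these largest clonotypes are shown to set the expanded receptors beside the germline ends above. Each is the CDR3 nucleotide sequence, 5′ to 3′, with the bases assigned to the TRBJ2 segment in capitals.

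TRBV13-2 with TRBJ2-5, Vsig4-deficient 1: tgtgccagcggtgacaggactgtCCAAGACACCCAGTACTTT

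TRBV1 with TRBJ2-1, Vsig4-deficient 1: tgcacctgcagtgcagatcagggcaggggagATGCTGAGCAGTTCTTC

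TRBV31 with TRBJ2-4, Vsig4-deficient 1: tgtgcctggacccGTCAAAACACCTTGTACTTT

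TRBV12-2 with TRBJ2-4, Vsig4-deficient 2: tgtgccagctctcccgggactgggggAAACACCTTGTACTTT

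TRBV1 with TRBJ2-2, Vsig4-deficient 2: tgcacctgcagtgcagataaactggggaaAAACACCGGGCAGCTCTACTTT

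TRBV13-3 with TRBJ2-7, wild-type 1: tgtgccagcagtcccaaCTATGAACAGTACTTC

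TRBV1 with TRBJ2-2, wild-type 2: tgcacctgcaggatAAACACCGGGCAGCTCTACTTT

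The TRBJ2-5 clonotype was the largest of Vsig4-deficient 1, with 52404 counts (5.47% of in-frame counts), and had lost 2 bases of the J. The TRBJ2-1 clonotype followed with 41134 counts and a loss of 5 bases, and the TRBJ2-4 clonotype with 34462 counts and a loss of 1 base. In Vsig4-deficient 2 the TRBJ2-4 clonotype had 25438 counts (2.07%) and the TRBJ2-2 clonotype 17125 counts (1.39%). The TRBJ2-7 clonotype was the largest of wild-type 1, with 27298 counts (3.12%), and the TRBJ2-2 clonotype the largest with a TRBJ2 segment in wild-type 2, with 3697 counts (0.43%). The 7 had lost from 1 to 5 bases of the J.

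The same junctions were listed at low counts in other libraries. The 3 shown from Vsig4-deficient 1 had 1110, 779 and 831 counts in Vsig4-deficient 2, and 10 to 18 counts in the wild-type libraries. The 2 shown from Vsig4-deficient 2 had 41 and 35 counts in Vsig4-deficient 1. The TRBJ2-7 clonotype of wild-type 1 had 348 counts in wild-type 2. Whether these are shared clones or carry-over between libraries was not tested. With all rearrangements listed in more than 1 library left out, TRBJ2-4 remained lower in-frame (edgeR adjusted p = 0.0044), and neither TRBJ2-2 nor TRBJ2-3 was called by counts between genotypes (adjusted p = 0.29 for each).

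Sharing itself varied with the segment. Identical in-frame nucleotide clonotypes in another library made up 21.6% and 19.8% of TRBJ2 clonotypes in Vsig4-deficient hosts, against 19.9% and 15.8% in wild-type hosts. For TRBJ1 the values were 19.4% and 17.2% in Vsig4-deficient hosts, against 18.4% and 14.7% in wild-type hosts, lower than for TRBJ2 in each of the 4 libraries. TRBJ2-1 had the highest mean (20.6% ± 2.46) and TRBJ2-2 the lowest (17.2% ± 2.66; SD, n = 4), less apart than the libraries were. Counted as amino acid clonotypes, 33.3% and 29.96% of TRBJ2 clonotypes were shared in Vsig4-deficient hosts, against 31.7% and 26.4% in wild-type hosts. At that level TRBJ2-7 had the highest mean (32.4% ± 3.33), above TRBJ2-1 (30.9% ± 2.85), and TRBJ2-2 again the lowest (26.2% ± 2.86; SD, n = 4).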

How the data were processed

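Members and lists were chosen with earlier results of these data known. Per the file headers, each deposited table gives every CDR3 a whole-number clone count, a clone fraction and a lowest-quality score beside its V, D and J hits. The count was used with no normalization, and the fraction and score were not used in tests. The submitters' processing notes name the build mm10. No source used here names the assembling program or its filters.

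In-frame meant a CDR3 with neither a frame shift nor a stop codon. Trimming and P bases were read from the reference points of the alignments, with P ends as untrimmed (0 bases) in means. Sequences shown are the commonest untrimmed J ends. Positions come from RefSeq (GRCm38.p6).

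Numbers of clonotypes or counts per feature were tested with edgeR 4.0.16 (quasi-likelihood, offsets from library totals, at least 10 in all, Benjamini-Hochberg adjustment over every TRBJ feature, threshold 0.05) in R 4.3.3, between genotypes or between frames with the library as a block. DESeq2 1.42.0 was an alternative. On counts simulated from these libraries with 2-fold changes the fits returned the changes. Those counts were drawn from edgeR's own model with a common spread, so the check does not cover segments whose counts rest on single clonotypes. Smaller changes were not simulated, so the power to call ratios as small as most of those reported here is not known. Single values had two-sided exact permutation tests (Python 3.11.15, SciPy 1.17.1). V–J pairs named were those with the smallest p or, in pairing, the 3 highest and 3 lowest ratios, and clonotypes the largest of each segment and library. One item named by these rules is left out of the text.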

Additional observations from a re-analysis of the deposited data

Results flagged for a closer look

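For TRBJ2-5 the difference in mean trimming between frames ran opposite ways in the genotypes. In-frame minus out-of-frame it was 0.14 and 0.05 bases in Vsig4-deficient 1 and 2 and -0.01 and -0.04 bases in wild-type 1 and 2, a difference of 0.12 bases between the genotypes. That difference was not tested.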

How the results depend on the processing

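Counts of called TRBJ2 features between genotypes were 0 for CDR3 length and trimming in the main setting and under every alternative run. With each library left out they ranged from 0 to 3 for segments by clonotypes, from 0 to 1 for segments by counts (2 in all libraries) and from 0 to 57 for V–J pairs. Segments by counts also gave 0 with TMM factors, with DESeq2, with the replicate block, without each library's largest clonotype and without clonotypes listed elsewhere, and 1 with a crossed replicate block. TMM factors moved their median over all 12 segments to 0.05, against -0.15. The labels tie same-numbered libraries by nothing but the number. Their deviations correlated at -0.61 over 12 TRBJ segments and at 0.13 over 230 V–J pairs, which cannot tell whether they shared a batch. The replicate block changed no other count of called TRBJ2 features, with 0 in the other comparisons of genotypes. Trimming between frames (11 called) gave 22 with TMM factors and 2 with DESeq2, and 5 to 10 with each library left out. Of the 22, 4 were lower in-frame, against 10 of 11 in the main setting.

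Directions of single segments turned in these cases (log2 ratios). Of the turned values, only TRBJ2-4 without the 10 largest was called. By counts between genotypes, TRBJ2-1 gave 0.079 with TMM factors, 0.080 with DESeq2 and 0.012 without each library's largest clonotype. TRBJ2-4 gave -0.32 without the 10 largest (edgeR adjusted p = 0.0069, of a range from 0.0069 to 0.90) and -0.082 without clonotypes listed elsewhere. TRBJ2-5 gave -0.064 without the 10 largest and -0.098 without the largest. Between frames, TRBJ2-1 gave 0.038 with TMM factors, 0.035 with DESeq2, 0.015 without clonotypes of 1 count, 0.0029 without the library block and 0.00047 without out-of-frame sequences 1 base from an in-frame clonotype. TRBJ2-5 gave 0.024 with TMM factors and 0.025 with DESeq2, and TRBJ2-2 gave 0.025 without clonotypes listed elsewhere. With each library left out in turn, values by clonotypes between genotypes ran from -0.033 to 0.11 for TRBJ2-1 (the highest, without Vsig4-deficient 1, was called), from -0.0030 to 0.052 for TRBJ2-2 and from -0.012 to 0.033 for TRBJ2-4. By counts they ran from -0.49 to 0.20 for TRBJ2-1 and from -0.34 to 0.63 for TRBJ2-4. Between frames they ran from -0.015 to 0.021 for TRBJ2-1 and from -0.038 to 0.032 for TRBJ2-5. The TRBJ2 share of counts gave -2.56 percentage points without the 10 largest. The cause was not tested. By counts, 2 libraries per genotype and single clonotypes limit the precision, and out of frame the depth is 3372 to 5383 TRBJ2 rearrangements. Settings with shared clonotypes, each library's largest clonotype, stop codons as in-frame and the crossed block were chosen after seeing the data.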
